A study of Mus musculus with 6 samples.

Results

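The angiopoietin-Tie axis is measured here by 3 genes, Angpt1, Tie1 and Tek. The members are every probe set in the deposited value table that carries 1 of these symbols alone, with dim probe sets kept and marked. There are 3 of them among 28821 probe sets (13146 named genes), 1 for each gene, and 0 further probe sets list a member beside another gene. RNA came from sorted Lin-/Sca1-/cKit+ cells, a fraction without mature lineage markers or Sca1 that carries the receptor Kit and holds committed myeloid progenitors. The leukemia group has 3 samples from the spleens of MF1 mice that had been lethally irradiated and given progenitors transduced with AE9a, a truncated form of the AML1-ETO fusion protein. The wild-type group has 3 samples from the bone marrow of MF1 mice, whose genotype is given as wild-type and who are not described as transplanted. Mice of both groups were 12 to 16 weeks old, and the labels number the leukemia mice but name the wild-type mice in the plural, so that wild-type samples may be pools. Tissue differs along with disease, and marrow against spleen, like irradiation and transplantation, cannot be told apart from leukemia in these data.

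Angiopoietin-1, the product of Angpt1, is a secreted ligand that binds and activates Tek, a receptor tyrosine kinase better known as Tie2. Tie1 is the related receptor that binds angiopoietins poorly on its own and joins Tek in complexes that alter its signalling. The axis is best known for keeping blood vessels quiet and tight, and in bone marrow Tek also marks part of the stem cell pool, where its signalling is tied to quiescence and adhesion to the niche.

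The sequences around the starts of both receptor genes are shown first because the receptors moved in opposite directions. RefSeq windows of GRCm38.p6, from 250 bases before to 50 bases after the start listed there, were used for Tek and Tie1 and none for Angpt1. The RefSeq gene model of Tek begins earlier than that start, inside the window. Letters searched on both strands were AGATAA for Gata factors, GGAAGT for Ets factors, TGTGGT for Runx factors and the E-box CANNTG. Capitals mark Gata and Ets matches, and E-boxes stay in lower case.
Tek, chr4:94739039-94739338, plus strand: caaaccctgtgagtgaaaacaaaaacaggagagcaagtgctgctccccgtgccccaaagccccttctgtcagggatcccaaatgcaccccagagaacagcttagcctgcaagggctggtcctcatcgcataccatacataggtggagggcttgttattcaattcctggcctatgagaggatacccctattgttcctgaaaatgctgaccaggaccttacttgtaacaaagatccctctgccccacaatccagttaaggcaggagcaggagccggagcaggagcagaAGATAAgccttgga
Tie1, chr4:118489800-118490099, minus strand: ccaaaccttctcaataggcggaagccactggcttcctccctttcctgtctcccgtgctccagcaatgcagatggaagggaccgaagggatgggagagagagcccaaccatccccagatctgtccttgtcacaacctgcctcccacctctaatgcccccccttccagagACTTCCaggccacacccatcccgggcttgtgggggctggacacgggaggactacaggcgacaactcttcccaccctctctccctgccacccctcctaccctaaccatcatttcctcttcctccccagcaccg
Counted from the first base printed, the Tek window holds 1 Gata match at bases 287 to 292 and 0 Ets or Runx matches. The Tie1 window holds 1 Ets match at bases 169 to 174, on the opposite strand, and 0 Gata or Runx matches. E-box letters occur at 2 places in the Tek window and at 1 in the Tie1 window, and no matches overlap. Of 32851 RefSeq windows of this length, 11.2% hold the Gata letters, 23.8% the Ets letters, 16.8% the Runx letters and 72.3% an E-box, so each of these matches is common. The windows differ in composition, with 60.3% G and C for Tie1 and 52.0% for Tek against a median of 52.7%.

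The ligand gene and Tie1 were lower in the leukemia cells, and the receptor gene Tek was higher. All 3 members passed the test (limma on log2 intensity, Benjamini-Hochberg adjustment over 28782 probe sets, threshold 0.05), and in all 3 the groups did not overlap. Over all probe sets 28.4% passed (12.8% higher and 15.6% lower), and 48.0% did not overlap (22.8% higher and 25.2% lower). Changed and non-overlapping probe sets are thus common in this comparison, and it is the sizes that place the members near its edges. There were 99 probe sets that fell by as much as Angpt1 or more and 599 by as much as Tie1, while 324 rose by as much as Tek. The total of 8173 changed probe sets was 4735 without wild-type replicate 2 and 4729 without wild-type replicate 3.

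Angpt1 was among the brighter genes of the wild-type arrays. Its log2 intensity was 9.17, 9.05 and 8.98 on wild-type replicates 1, 2 and 3, which is between the 82.3 and 84.9 percentile of all probe sets on those arrays. In leukemia it was 4.05, 3.60 and 5.23 on replicates 1, 2 and 3, between the 14.7 and 37.6 percentile. Every leukemia array lay far below every wild-type array, and all 3 leukemia values were dim, meaning under the 40th percentile of their own array. The wild-type arrays spanned 0.20 and the leukemia arrays 1.63, with leukemia replicate 3 the highest of them. The mean fell from 9.07 ± 0.10 to 4.29 ± 0.84 (SD, n = 3 each), a change of -4.77 ± 0.39 (SE, 95% interval -5.69 to -3.85, limma adjusted p = 2.13e-04), or 27.3-fold. Since the leukemia values are dim, the fold depends on background: with 16 added before the log it was 15.1-fold (change -3.92, limma adjusted p = 7.92e-05). In bulk RNA, fewer cells that express a gene and less RNA in each cell cannot be told apart, for Angpt1 as for the other genes described here.

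Tie1, the coreceptor, was of middling intensity in wild-type cells. Its log2 intensity was 6.75, 6.91 and 6.44 on the wild-type arrays (51.5 to 57.8 percentile) and 3.64, 4.05 and 4.52 on leukemia replicates 1, 2 and 3 (14.9 to 28.2 percentile). The groups stood 1.92 apart at their nearest values, and again all 3 leukemia values were dim. The change was -2.63 ± 0.25 (SE, 95% interval -3.22 to -2.04; 6.70 ± 0.24 to 4.07 ± 0.44, SD, n = 3 each; limma adjusted p = 4.34e-04), or 6.18-fold, and 3.63-fold with 16 added before the log.

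Tek, the receptor that angiopoietin-1 activates, ran the other way. On the wild-type arrays it was at 5.87, 5.18 and 5.48, close to the dim mark (35.4 to 44.3 percentile), and it was dim on 2 of the 3. On leukemia replicates 1, 2 and 3 it was at 6.92, 8.69 and 8.45, none of them dim, at the 58.8, 79.7 and 76.3 percentile. Leukemia replicate 1 lay 1.52 below the nearest other leukemia array and 1.05 above the highest wild-type array. The mean rose from 5.51 ± 0.35 to 8.02 ± 0.96 (SD, n = 3 each), a change of 2.51 ± 0.46 (SE, 95% interval 1.42 to 3.59, limma adjusted p = 0.00722), or 5.69-fold. The size rests on which leukemia arrays are used. Leukemia replicates 2 and 3 are of a different fluidics run from the wild-type arrays. Without leukemia replicate 1, run and disease thus cannot be told apart. The change was then 3.06, or 8.32-fold (limma adjusted p = 2.71e-04). With the fluidics run as a block, which sets leukemia replicate 1 alone against the wild-type arrays of its run, it was 1.41, or 2.66-fold (limma adjusted p = 0.0108, assuming that this array varies like the others).

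**Figure D1:**
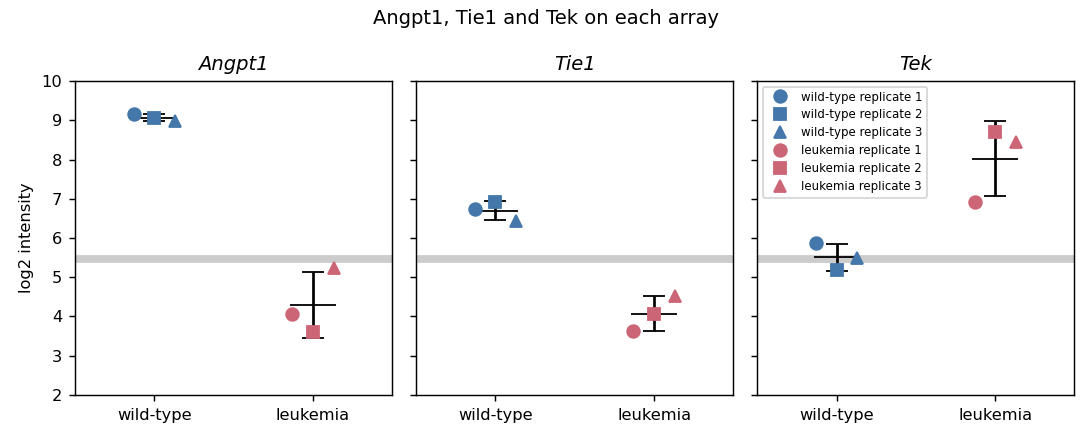
Log2 intensity (vertical axis) of Angpt1, Tie1 and Tek on each of the 6 arrays, with wild-type in blue and leukemia in red, a symbol for each replicate, a black line for the group mean and bars of 1 SD; the grey band spans the 40th percentiles of the arrays (5.39 to 5.54). Angpt1 and Tie1 lie under the band on every leukemia array, and Tek lies above it there.

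Exact permutation of the group labels gave p = 0.1 (two-sided) for each member, the smallest p that 3 against 3 samples allow. The direction and the call of each member held in all 15 alternative settings. Over these, Angpt1 ran from -5.24 to -3.92 (limma adjusted p at most 0.00232), Tie1 from -3.06 to -1.86 (at most 0.00379) and Tek from 1.41 to 3.06 (at most 0.0373). The highest p of Tek came without wild-type replicate 2.

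**Figure D2:**
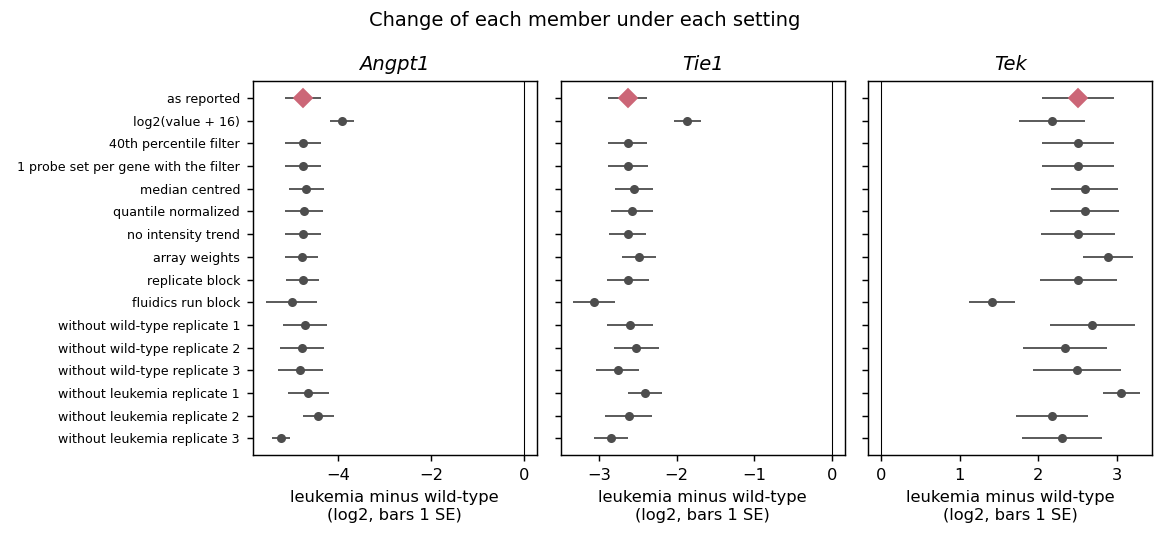
Change of each member (horizontal axis, leukemia minus wild-type, log2, bars of 1 SE) as reported (diamond) and under 15 other settings (dots). No setting crosses 0, and the widest move is that of Tek, from 2.51 to 1.41 with the fluidics run as a block.

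Some measures of the arrays differed along with the members. Wild-type arrays correlated with each other at a Pearson's r of 0.992 to 0.994, leukemia arrays at 0.969 to 0.978 and arrays of different groups at 0.902 to 0.925, and leukemia replicate 1 had the lowest array weight (0.264 against 0.825 to 2.06). The 5' probe set of 18S ribosomal RNA was at 7.77 to 9.41 in wild-type and at 11.14 to 12.35 in leukemia, and Gapdh's 3' probe set stood above its 5' one by 0.23 more in leukemia, whereas for Actb that difference was 0.03 (exact permutation p = 0.1 and 0.9, two-sided). All 3 measures were highest on leukemia replicate 1. Their part in the changes of the members was not tested.

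The other extracellular and membrane partners of the Tie receptors gave 7 measured genes of 10 listed (Angpt2, Lect2 and Svep1 are not analysed here). Of the 7, 2 rose, 1 fell and 4 did not pass (42.9% changed, against 32.9% of all genes, 12.7% higher and 20.2% lower, each gene by its brightest probe set), with a median change of 0.00 against -0.04 for all genes. Mmp14, a membrane protease that can shed surface receptors, was at 7.11 to 7.71 in wild-type and 8.71 to 9.83 in leukemia and rose by 1.86 ± 0.31 (SE, limma adjusted p = 0.00494). Integrins can bind angiopoietins directly, and their chains moved apart. The beta chain gene Itgb1 rose from 8.96 ± 0.25 to 10.40 ± 0.24 (SD, n = 3 each; change 1.44, limma adjusted p = 0.00118). Further probe sets of Itgb1 gave 0.18 to 1.13, the lowest without passing. The alpha5 chain gene Itga5 fell from 6.74 ± 0.32 to 4.82 ± 0.13 (change -1.92, limma adjusted p = 6.38e-04), dim on every leukemia array, and its further probe sets also fell (-1.49 and -0.64).

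The remaining partners gave no call. Itgav, another alpha chain gene, was 0.34 higher (limma adjusted p = 0.274) and passed with the fluidics run blocked (0.70, limma adjusted p = 0.0494) and without leukemia replicate 3 (0.56, limma adjusted p = 0.0455). The sheddase gene Adam17 gave -0.17 (limma adjusted p = 0.406). Angpt4, a further angiopoietin, was at 3.90 ± 0.22 in wild-type and 3.90 ± 0.16 in leukemia (SD, n = 3 each), and Ptprb, the endothelial phosphatase that acts on Tek, at 3.45 ± 0.16 in each. Both were dim on all 6 arrays, and their changes were 0.00.

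Below the receptor, adaptor and kinase genes changed in both directions. Of 23 measured signalling genes (26 listed) 6 rose, 5 fell and 12 did not pass (47.8% changed against 32.9% of all genes, median 0.04). Without wild-type replicate 2 the count of 11 was 6, and without wild-type replicate 3 it was 5. Dok2, a docking protein that binds activated Tek, rose by 0.99 ± 0.20 (7.24 to 7.54 in wild-type, 8.05 to 8.71 in leukemia, limma adjusted p = 0.0112), which did not pass once wild-type replicate 3 was left out (0.0525). Grb2, the adaptor that links receptors to Ras, rose by 0.96 ± 0.12 (limma adjusted p = 0.00138), and its other probe set gave 0.22. Rasa1, a Ras GTPase activator, rose by 1.11 (limma adjusted p = 0.0203), which did not pass once wild-type replicate 2 (0.0805) or 3 (0.0776) was left out or the fluidics run was blocked (0.0758). The scaffold gene Iqgap1 rose by 0.49 (limma adjusted p = 0.00911), and its further probe sets gave -0.17 to 1.05.

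The PI3-kinase and Akt genes of the list, which act in cell survival below Tek, gave mixed results: 3 fell by their brightest probe set and the others did not pass. Pik3r2, a regulatory subunit of the kinase, was at 7.86 to 8.03 in wild-type and 6.64 to 6.71 in leukemia (change -1.26 ± 0.13, limma adjusted p = 6.70e-04). Akt2 fell by 1.01 and Akt1 fell by 0.66 (limma adjusted p = 0.00203 and 0.00366), while further probe sets of Akt2 gave -0.62 and -0.08 without passing. Pik3cb (-0.59, limma adjusted p = 0.197), Pik3r1 (-0.36, limma adjusted p = 0.148) and the catalytic subunit gene Pik3ca (0.38, limma adjusted p = 0.0541) did not pass, and further probe sets of Pik3ca ranged from 0.25 to 1.09, some of them past the threshold as higher. Pik3ca passed as higher under 7 alternatives, among them median centring (0.46, limma adjusted p = 0.0310) and leaving out leukemia replicate 2 (0.46, limma adjusted p = 0.0438). Pik3cb passed as lower with the run blocked (-1.33, limma adjusted p = 0.00264), and Pik3r1 passed as lower without leukemia replicate 1 (-0.54, limma adjusted p = 0.00523) and with array weights (-0.48, limma adjusted p = 0.0174), but was at -0.01 with the run blocked. Sos1, the exchange factor that Grb2 brings to Ras, fell by 1.32 (limma adjusted p = 0.0447), while its other probe set gave 0.20 (limma adjusted p = 0.41). The leukemia values of the brightest probe set were 6.63, 8.24 and 7.99 on replicates 1, 2 and 3. Its call was lost without any 1 of the wild-type arrays (limma adjusted p = 0.123, 0.110 and 0.129), without the intensity trend and with the replicate block. Foxo1, the transcription factor that Akt holds in check, gave -0.57 with its brightest probe set (limma adjusted p = 0.110; -0.78 and 0.0356 without leukemia replicate 2), while its further probe sets gave -1.46 and -0.84, both past the threshold.

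**Figure D3:**
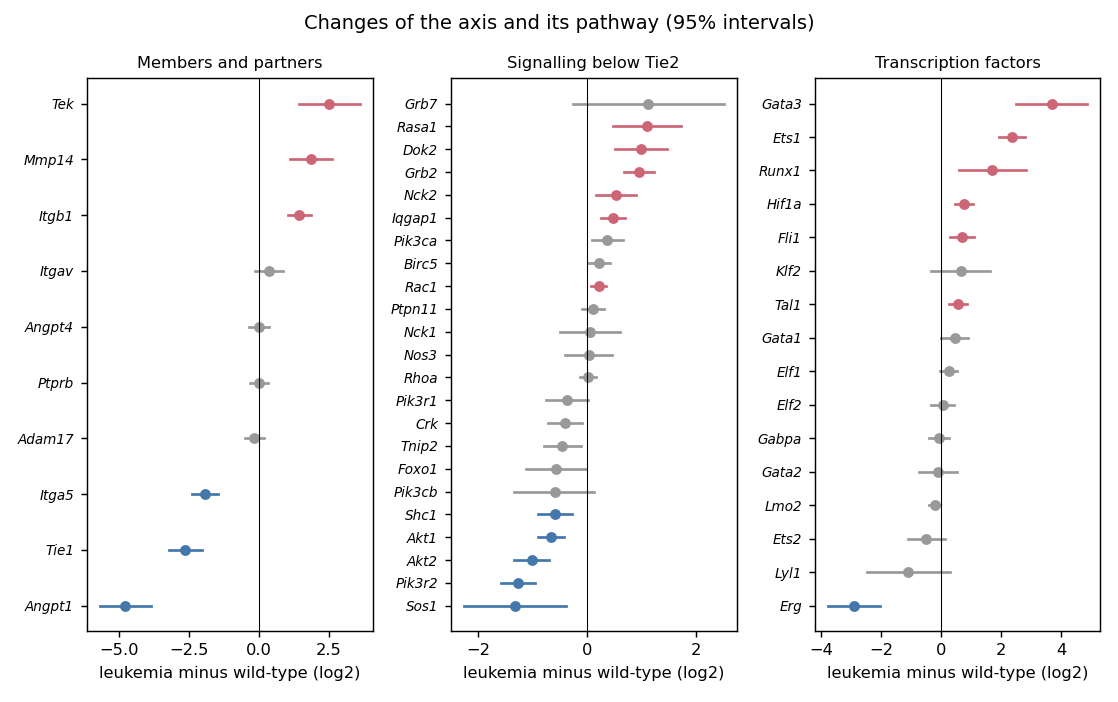
Change between groups (horizontal axis, leukemia minus wild-type, log2) with 95% intervals for the members with their partners, for signalling genes and for transcription factors; red passed as higher, blue as lower, grey did not pass. Angpt1 (-4.77) and Tie1 (-2.63) lie at the low end and Tek (2.51) at the high end of the first panel.

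Transcription factors of endothelium and blood (Ets and Gata factors, the SCL complex, hypoxia factors, Runx1 and Klf2) gave 16 measured genes of 17 listed, of which 6 rose, 1 fell and 9 did not pass (43.8% changed, median 0.35). Over all genes 32.9% changed, 12.7% higher and 20.2% lower. With the run blocked, 5 rose and 5 fell, in a fit where calls were more frequent over all genes too (2063 rose and 3248 fell of 13146). Gata3 was dim on every wild-type array (4.92, 5.09 and 4.92) and at 7.79, 8.26 and 9.94 in leukemia (change 3.69 ± 0.51, limma adjusted p = 0.00220). Ets1 rose from 6.54 ± 0.14 to 8.90 ± 0.28 (SD, n = 3 each; change 2.36, limma adjusted p = 1.58e-04), with its 3 further probe sets at 1.16 to 2.38. Erg, an Ets factor of endothelium and stem cells, fell from 8.25 ± 0.30 to 5.35 ± 0.75 (change -2.90, limma adjusted p = 0.00159). Hif1a, the hypoxia factor subunit, rose by 0.76 (limma adjusted p = 0.00429). Runx1, the mouse gene for the blood transcription factor that AML1 names in the fusion, gave 1.71 (limma adjusted p = 0.0344). Its 5 further probe sets gave 0.96 to 1.85, all past the threshold as higher. The call of the brightest probe set did not hold without any 1 of the wild-type arrays (0.0521 to 0.122). That call was also lost without leukemia replicate 2 (0.0593) or 3 (0.0741) and with the replicate block (0.0595). The change was 0.72 with the run blocked (0.246). Neither Gata1 (0.45, limma adjusted p = 0.130) nor Gata2 (-0.11, limma adjusted p = 0.803) passed. For Gata2, leaving out leukemia replicate 1 gave 0.22, and blocking the run gave -0.75, past the threshold (limma adjusted p = 0.0168).

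Related ligand families were counted in the same way. Of 6 measured VEGF ligands and receptors (11 symbols listed, with Figf and Vegfd naming the same gene) 3 fell and 0 rose. The median change was -0.73. Among the receptors only Nrp1 and Nrp2 were measured, while Kdr, Flt1 and Flt4 are not analysed here, nor is the ligand gene Pgf. Over all genes 20.2% fell and 12.7% rose, and so short a list gives only a rough share. Vegfc, among the 3 that fell (3.46 to 2.84), was dim on all 6 arrays. Nrp1, the VEGF coreceptor neuropilin-1, was at 6.31, 7.12 and 6.74 in wild-type and 4.02, 4.25 and 3.75 in leukemia, where it was dim throughout (change -2.72 ± 0.24, limma adjusted p = 3.18e-04), and its other probe sets gave -2.15 and -1.74. Vegfb fell by 1.62 (limma adjusted p = 0.00671). Vegfa was spread over the leukemia arrays (4.18, 6.22 and 3.89 against 5.50 to 5.73) and did not pass (-0.83, limma adjusted p = 0.313), whereas without leukemia replicate 2 it passed (-1.56, limma adjusted p = 0.00178). Among the angiopoietin-like genes, 3 of 6 listed were measured and 1 rose. That was Angptl1 (0.71, limma adjusted p = 0.0201), dim on every wild-type array and on 2 of the 3 leukemia arrays. The call was lost without any 1 of the wild-type arrays (limma adjusted p = 0.0587 to 0.0777). Angptl4, a regulator of lipoprotein lipase, was at 6.90 on leukemia replicate 1 against 8.19 and 8.57 on the others and 8.17 to 8.30 in wild-type. It did not pass (-0.33, limma adjusted p = 0.572), except with the run as a block (-1.32, limma adjusted p = 0.00279).

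Since Tie1 and Tek are best known from endothelium, endothelial markers were set beside them. Of 15 measured (20 listed) 2 rose, 5 fell and 8 did not pass (median -0.03), and 8 were dim on all 6 arrays. Kdr, Flt1, Flt4, Sox18 and Lyve1 of the list are not analysed here. Over all genes 12.7% rose and 20.2% fell. Cdh5, the defining endothelial cadherin, was at 3.66 ± 0.05 (SD, n = 3) in wild-type and at 3.63 ± 0.04 in leukemia, dim on all arrays, and Cldn5, Mmrn2, Sox17, Nos3, Ptprb, Robo4 and Stab2 were dim throughout as well. The summed intensity of the list was 2162 to 2299 on the wild-type and 1794 to 2247 on the leukemia arrays. The leukemia sum is mostly 1 gene, Egfl7 (9.47 to 9.75 in wild-type, 10.22 to 10.66 in leukemia), so it says little about the other markers. Some markers that blood cells also express fell, as Tie1 did. Pecam1 fell from 8.31 ± 0.21 to 3.70 ± 0.34 (SD, n = 3 each; change -4.61, limma adjusted p = 1.92e-05), Emcn fell by 2.62, Vwf fell by 2.25 and Eng fell by 2.18. The other probe set of Eng gave -1.03 without passing (limma adjusted p = 0.13). Robo4, dim throughout, also passed as lower (-0.81, limma adjusted p = 0.0400), but not without any 1 of the wild-type arrays (0.0647 to 0.112), without leukemia replicate 1 (0.0731) or 3 (0.0966), or with the run blocked (0.105). Egfl7, which encodes a secreted vessel factor, rose by 0.83 (limma adjusted p = 0.00610). Plvap rose by 0.81 (limma adjusted p = 0.0445), which was lost without any 1 of the wild-type arrays (limma adjusted p = 0.0866 to 0.148), without leukemia replicate 1 (0.0517) or 3 (0.0766) and with the run as a block (0.152).

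Other cells that could carry these genes were checked in the same way, where 12.7% of all genes rose and 20.2% fell. Megakaryocytes are a source of angiopoietin-1, and of 9 measured megakaryocyte and platelet genes (12 listed) 2 rose and 5 fell, with a median of -1.13 and a summed intensity of 2017 to 2228 in wild-type against 1184 to 1876 in leukemia. Pf4 fell by 3.85 and Ppbp fell by 2.92 beside Angpt1, while Gp5 rose by 2.05 (1.07 with the run as a block) and was the brightest gene of the list on every leukemia array. Treml1 rose by 0.77 (limma adjusted p = 0.0353), which was lost without any 1 of the wild-type arrays (limma adjusted p = 0.0745 to 0.119), without leukemia replicate 2 (0.0606) and with either block. Some macrophages carry Tek. Of 11 measured macrophage markers (12 listed) 0 rose and 7 fell, and 8 were dim on every leukemia array, 4 of them on all 6 arrays. Among those that fell, Adgre1, Mrc1 and Cd5l were dim on every wild-type array too. Csf1r went from 10.17 to 10.96 in wild-type to 4.07 to 4.60 in leukemia, and Cd68 fell by 3.14. The list summed to 1761 to 2768 in wild-type and 252.3 to 306.7 in leukemia. The wild-type sum is mostly Csf1r, since the next brightest gene there, Cd68, was at 7.73 to 8.49. Of 9 stromal markers (15 listed) 0 rose and 2 fell, Pdgfrb by -1.52 and Col1a2 by -1.29, the latter lost with the run as a block (limma adjusted p = 0.0703), with sums of 296.2 to 333.4 and 176.3 to 319.0. The other probe set of Pdgfrb gave -4.43 (limma adjusted p = 0.00022) and that of Col1a2 -0.02 (limma adjusted p = 0.9). Col1a1, Col3a1, Dcn and Pdgfra were dim on all 6 arrays. The part of a shift in megakaryocytic, stromal or macrophage cells in the changes of the members was not tested.

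Stem and primitive progenitor genes, among which Tek is often counted, included some of the deepest falls. Of 13 measured (18 listed) 1 rose and 7 fell, with a median of -1.53, where 12.7% of all genes rose and 20.2% fell. On all 6 arrays 4 were dim, among them Procr, Mecom and Ndn, which did not pass by their brightest probe sets. Hlf (-0.76, limma adjusted p = 0.183) and Slamf1 (1.26, limma adjusted p = 0.129) did not pass either. Hoxa9 fell by 6.04, Gfi1 fell by 5.04 and Meis1 fell by 4.64. The risen gene was Cdkn1c (0.51, limma adjusted p = 0.0186), a cell cycle inhibitor of quiescent stem cells that was dim on all 6 arrays. Its call was lost without wild-type replicate 1 (limma adjusted p = 0.0663) or 3 (0.0798) and with the run as a block (0.0901). The sort was checked with 7 measured markers of 13 listed, of which 5 fell and 0 rose. Kit was at 10.35 to 10.42 in wild-type and 9.34 to 9.80 in leukemia, and Cd8a, Cd5, Ms4a1 and Itgam were dim on all 6 arrays. The other probe set of Kit gave 0.72 without passing (limma adjusted p = 0.23). Il7r fell by 3.13 and Ptprc, the CD45 gene, fell by 7.64, while the other probe set of Ptprc gave -0.18 (limma adjusted p = 0.34).

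**Figure D4:**
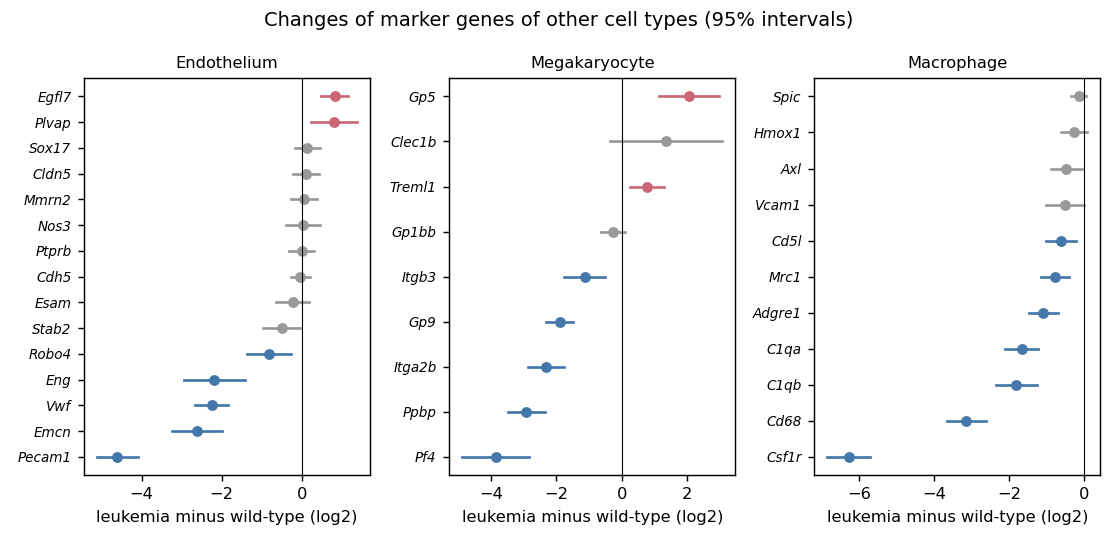
Change between groups (horizontal axis, leukemia minus wild-type, log2) with 95% intervals for markers of endothelium, megakaryocytes and macrophages; red passed as higher, blue as lower, grey did not pass. Cdh5 (-0.03) sits near 0, whereas Pecam1 (-4.61) and Csf1r (-6.27) are the lowest of their panels.

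For each member the 5 genes with the most similar profile were found by the root mean square difference of log2 intensity over the 6 arrays, each gene centred on its own mean. The groups stand apart, so this measure mostly reflects the size of the change between them and the order of the leukemia arrays. Nearest to Tie1 was Emcn, which encodes the endothelial sialomucin endomucin, at a difference of 0.13. Emcn was at 5.86, 6.42 and 5.82 in wild-type and 3.06, 3.26 and 3.92 in leukemia, in the same order of leukemia arrays as Tie1. The leukemia values of both genes were dim on every array, which limits what a shared order shows. Socs5, Sestd1, Tanc1 and Basp1 followed at 0.19 to 0.21, with changes of -2.48, -2.45, -2.39 and -2.99. Nearest to Tek was St3gal6, a sialyltransferase gene, at 0.15, with 6.80, 8.53 and 8.29 on the leukemia arrays. After it came Spink4, Cap2, Tmem9 and Cd55, which encodes a complement inhibitor, at 0.24 to 0.25. Among the leukemia arrays all 5 were lowest on replicate 1 and highest on replicate 2, as Tek was. The profile of Angpt1 had no neighbour as near: Ms4a3, Ifi209, Slc40a1, Fads2 and Satb1 lay at 0.38 to 0.44. Ms4a3, a membrane protein gene of myeloid progenitors, Slc40a1, the iron exporter ferroportin, Fads2, a fatty acid desaturase, and Satb1, a chromatin organiser, were lowest on leukemia replicate 2 and highest on replicate 3 of that group, as Angpt1 was. Among the leukemia arrays Angpt1 and Satb1 were dim on all 3 and Slc40a1 and Fads2 on 2, with the same limit.

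**Figure D5:**
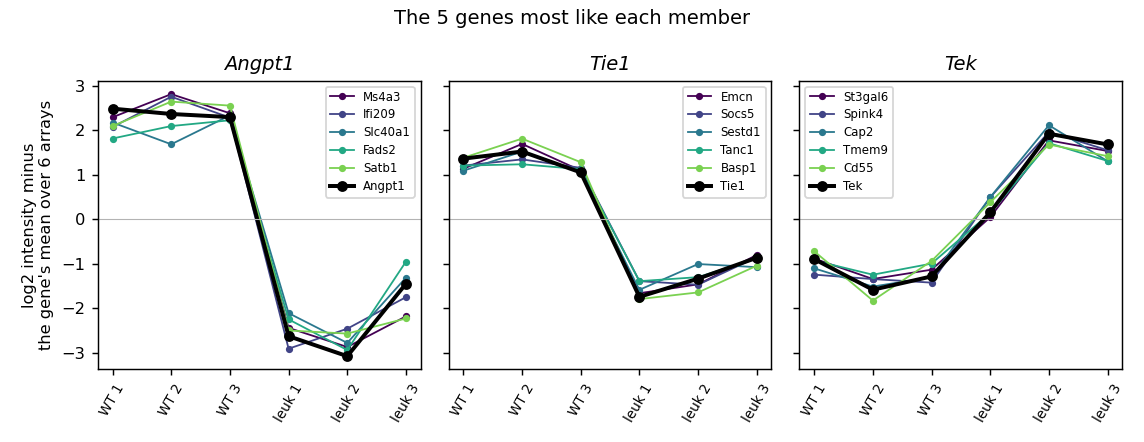
Log2 intensity minus each gene's mean over the 6 arrays (vertical axis) for each member (black) and the 5 genes most like it (coloured), array by array, with WT for wild-type and leuk for leukemia. The lines of Tie1 and Emcn (difference 0.13) and of Tek and St3gal6 (0.15) nearly coincide, and those around Angpt1 spread more.

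The genes next to the members in the genome were described as well. The nearest 2 protein-coding genes on each side were taken from RefSeq gene order of GRCm38.p6. Of 12 neighbours 8 were measured and 5 passed, where 32.9% of all genes did, and those that passed moved in both directions. Beside Tek, Ift74 fell by 1.38 (limma adjusted p = 0.00202) and Mysm1 rose by 0.65 (limma adjusted p = 0.0163, lost on leaving out wild-type replicate 1, at 0.0612, or 3, at 0.0747, and with the replicate block, at 0.0529). Beside Angpt1, the adjoining genes Abra and Rspo2 were dim on all 6 arrays and did not pass (0.23 and -0.16, limma adjusted p = 0.203 and 0.220). Further out, Oxr1 fell by 0.66 and Eif3e, a translation factor subunit, rose by 0.26 (limma adjusted p = 0.0135, lost on leaving out wild-type replicate 2, at 0.0569, or 3, at 0.0536). Near Tie1, the mitotic activator gene Cdc20 rose by 0.64 (limma adjusted p = 0.00106). There 2610528J11Rik, dim on all 6 arrays, gave 0.14 (limma adjusted p = 0.290). Each measured neighbour moved by less than the member beside it, which would hold for most genes. The members' changes lie at the 0.3 (Angpt1), 2.1 (Tie1) and 98.9 (Tek) percentile of all probe sets. Neighbours dim on all 6 arrays could also show little of a fall. A shift of whole neighbourhoods was not tested.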

How the data were processed

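RNA was hybridised to Affymetrix Mouse430_2 arrays, per the file headers, for 3 leukemia and 3 wild-type samples from 200 ng of total RNA each, per the labels. The deposited table gives linear intensity values (3.31 to 18869). RMA is named in the submitters' processing notes, and its version and steps are not given in the sources used here. Log2 was taken with no pseudocount. The text records deposited for each array hold no measurement and served, per the file headers, to find its fluidics run by the hybridization entry (2 runs, 1 chip lot, leukemia replicate 1 in the run of the wild-type arrays). All value columns were mapped (0 left over).

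Probe sets were named by platform annotation where it gives 1 symbol (23750 of 28821, while 677 have several, 4355 have none and 39 are controls), and 23674 gene IDs matched RefSeq. The groups were compared in limma 3.58.1 (R 4.3.3, two-sided, intensity trend, 4 degrees of freedom) over 28782 probe sets with no filter on dim ones. A gene is represented by its brightest probe set. No detection calls were used. Alternatives covered the pseudocount (16), a filter at the 40th percentile on at least 3 arrays, 1 probe set per gene, centring, quantile normalization, the trend, array weights, both blocks and leaving out each array. A count of 3 arrays per group limits the precision, and p-values reflect the spread among these samples alone, which may be technical.

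Named genes are the members, their measured partners, up to 2 genes per direction and list with the largest change among those that passed without overlap, and the 5 genes most like each member. Other genes named (further members of the lists, and the genome neighbours) were chosen after their values were seen. Members and lists were chosen with earlier results of these data known. The procedure was tested on simulated data. Figures were drawn with matplotlib 3.10.9.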

Additional observations from a re-analysis of the deposited data

How the results depend on the processing

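Angpt1, Tie1 and Tek kept their direction and their call under all 15 alternatives. The count of changed probe sets was 4089 with 1 probe set per gene and the filter on dim genes, where fewer features are tested, and ran from 4729 to 9555 when single arrays were left out. That of signalling genes then ran from 5 to 13. Changes of genes that had not passed changed sign. Angpt4 was at 0.08 on median centring, 0.04 on quantile normalization, 0.10 with the fluidics run as a block and from -0.11 to 0.11 without single arrays. Ptprb was at 0.08, 0.02 and 0.12 under the same settings and from -0.08 to 0.09 without single arrays, Cdh5 at 0.05 on median centring, Gata2 at 0.12 with array weights and from -0.35 to 0.22 without single arrays, and Angptl4 from -0.67 to 0.16 without single arrays. The cause was not tested. A further 97 genes were followed over the settings. They include every list gene that passed, so the 80 of them that passed give no share to read. Of the 80, 58 passed under every alternative that tested them, and none reversed. Same-numbered samples did not deviate together (r = -0.08, 0.02 and 0.02), and they were treated as unpaired. With 3 arrays per group this cannot exclude a pairing. With the replicate block 6713 probe sets changed, and Angpt1, Tie1 and Tek gave adjusted p = 0.00151, 0.00351 and 0.0224 (limma). The counts of lists without leukemia replicate 1 and with the run as a block, and the look at genome neighbours, were chosen after seeing the data. Of the 15 measured endothelial genes 1 rose and 4 fell under either. Of all 13146 genes 2017 rose and 3030 fell without leukemia replicate 1, and 2063 rose and 3248 fell with the run blocked. In the fit without leukemia replicate 1, run and disease cannot be told apart.

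The 6 arrays, no detection calls and dim values limit every size given here.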
